A study of Homo sapiens with 9 samples.

Results

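The genes described here encode the subunits of the respiratory chain that come from the nuclear genome. They were taken by symbol (NDUFA, NDUFB, NDUFC, NDUFS and NDUFV followed by a number, SDHA to SDHD, UQCR, COX4 to COX8, and ATP5) and by level, with a mean of at least 5 CPM (reads scaled to the size of the library) in the libraries without 4-thiouridine (4sU). Of 92 genes with such a symbol, 80 reached this level, out of 25801 genes in the table. They comprise 36 genes of complex I, 4 of complex II, 10 of complex III, 11 of complex IV and 19 of the ATP synthase (complex V). The symbols also bring in ATP5IF1, an inhibitor of the ATP synthase, the pseudogene UQCRBP1, the retro-copy UQCRHL and the readthrough gene ATP5MF-PTCD1. No gene was listed under the symbol NDUFA4 or NDUFA4L2, so neither is covered here.

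The respiratory chain sits in the inner mitochondrial membrane. Complexes I and II pass electrons from NADH and succinate to ubiquinone, complex III passes them on to cytochrome c, and complex IV passes them to oxygen. The proton gradient built by complexes I, III and IV drives the ATP synthase. Most subunits are encoded in the nucleus, and the remaining core subunits are encoded by mitochondrial DNA.

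All libraries came from the line MCF10A, non-transformed epithelial cells of the human breast, in which the JUN gene had been knocked out and JUN had been put back as a fusion with an auxin-inducible degron (AID) together with TIR1, the plant receptor that directs AID fusions to degradation. The first group of 3 libraries received no 4sU, and the labels do not say whether these cells received solvent. The second group of 3 received DMSO and then 100 µM 4sU for 1 h, and the third received 100 µM indole-3-acetic acid (IAA), the auxin that triggers degradation, for 1 h before the same pulse. The 3 columns of the IAA group were identical in every row and were counted as 1 library, so comparisons with IAA have no test. JUN was depleted as a protein from an introduced fusion, which RNA levels do not check.

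Transcripts synthesised during the pulse take up 4sU in place of uridine, which alkylation turns into a base that sequencing reports as C. The conversion rate is the percentage of T positions in a 3′ interval that were read as C, and it was measured beside the total level of the same mRNA in CPM. The 7 distinct libraries held between 18997637 and 24014195 reads. Of the markers for basal mammary epithelium, 6 of 6 were at 1 CPM or more (5.25 for KRT14 to 1248 for LAMB3, means of 7 libraries). None of 3 leukocyte and none of 3 endothelial markers reached 1 CPM, while COL1A1, 1 of 3 fibroblast markers, was at 5.14 CPM. Of 5 luminal markers, KRT18 and GATA3 were above 1 CPM, and ESR1, PGR and KRT19 were below it. The paper describes the replicates of this experiment as biological, and nothing in the labels says whether they were separate cultures. The p-values measure only the spread between these libraries.

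Many respiratory chain promoters carry short motifs for NRF1, for ETS factors such as GABP, and for YY1, which are known regulators of this gene group. RefSeq promoter sequences (250 bases before to 50 after the start site, GRCh38.p14) were matched to 65 of the 80 genes, with 78 promoters. Both strands were searched. The NRF1 core GCATGCGC was found in 15 of the 78 promoters (19.2%), in 5.17% of the 10319 promoters of tested genes and in 3.05% of all 35116 promoters in the table. The ETS motif CCGGAAG was in 28.2%, 18.3% and 10.3% of these sets, and the YY1 motif ATGGCGG was in 29.5%, 10.6% and 5.55%. At least 1 of the 3 was present in 53.8% of the respiratory chain promoters and in 29.7% of the promoters of tested genes. By contrast, the TATA box TATAAA was in 7.69% and 6.14% of them. These shares are descriptions, and a match is not evidence of binding. Most YY1 matches in respiratory chain promoters began after the start site, as in NDUFA9, SDHB and UQCRC1. The rest began before it, as in ATP5PF and NDUFS8. Matches in transcribed sequence were not separated from those upstream.

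The full palindrome GCGCATGCGC, formed where the core overlaps its own reverse complement, was present in 4 respiratory chain promoters, of complexes I, II and V. They are shown as windows of 30 bases because they carry the whole recognition sequence, with the palindrome in capitals. The ATP5F1C window, of the gamma subunit in the rotor stalk of the ATP synthase, lies at chr10:7788144-7788173 on the plus strand, and its palindrome begins 22 bases before the start site. The NDUFA8 window (chr9:122159765-122159794, minus strand) begins its palindrome 4 bases before the start site, so that the motif overlaps it. The palindromes of NDUFB4 (chr3:120596166-120596195, plus strand) and of SDHD, the membrane anchor of complex II (chr11:112086752-112086781, plus strand), begin 159 and 110 bases before the start site.
ATP5F1C: ggggagcttcgGCGCATGCGCgctgaggcc
NDUFA8: tgttgccggatGCGCATGCGCaggcgccgt
NDUFB4: aagagcacttcGCGCATGCGCatatcaccg
SDHD: cagctgtgtttGCGCATGCGCgacgggtgt

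The levels that chose these genes spanned a wide range. Without 4sU the mean level per gene ran from 6.36 to 684 CPM with a median of 73.3, and 31 of the 80 genes were at 100 CPM or more. QuantSeq reads come from the 3′ end, so CPM was not divided by length. In these bulk libraries, fewer cells with an mRNA and less of it per cell cannot be told apart. The genes just inside the limit were NDUFA3 (6.36), UQCRHL (6.50) and ATP5F1D (6.98 CPM), and those just outside were NDUFB2-AS1 (1.56), NDUFC2-KCTD14 (1.14) and ATP5MGL (0.985 CPM). The tissue-restricted paralogues COX4I2, COX6A2, COX6B2, COX7A1, COX7B2 and COX8C all lay outside it, while their widely expressed counterparts COX4I1, COX6A1, COX6B1, COX7A2, COX7B and COX8A lay inside. Complex IV had the highest median level (141 CPM), followed by the ATP synthase (125), complex III (81.6), complex II (68.1) and complex I (50.2 CPM).

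Respiratory chain mRNAs had lower median conversion rates after the pulse than the mRNAs of these cells as a whole. Without 4sU their median conversion rate was 0.0604%, 0.0516% and 0.0614% in the 3 libraries, beside 0.0571%, 0.0573% and 0.0594% for all 8451 genes tested. With DMSO and 4sU it was 0.150%, 0.117% and 0.118%, beside 0.247%, 0.187% and 0.185%, and in the IAA library it was 0.142%, beside 0.230%. Without 4sU the respiratory chain median was on either side of the all-gene median, and it was lower in each of the 4 labelled libraries. On the scale of log2(rate + 0.0005), with rates as fractions, the unlabelled libraries lay at a distance of −0.0028 ± 0.066 from the median of all genes, and the DMSO libraries with 4sU at −0.52 ± 0.044 (each SD over 3 libraries). UQCRHL was too low for testing, and of the other 79 genes 60, 61 and 66 lay under the all-gene median in the DMSO libraries and 63 in the IAA library, but only 32, 46 and 36 in the libraries without 4sU.

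**Figure D1:**
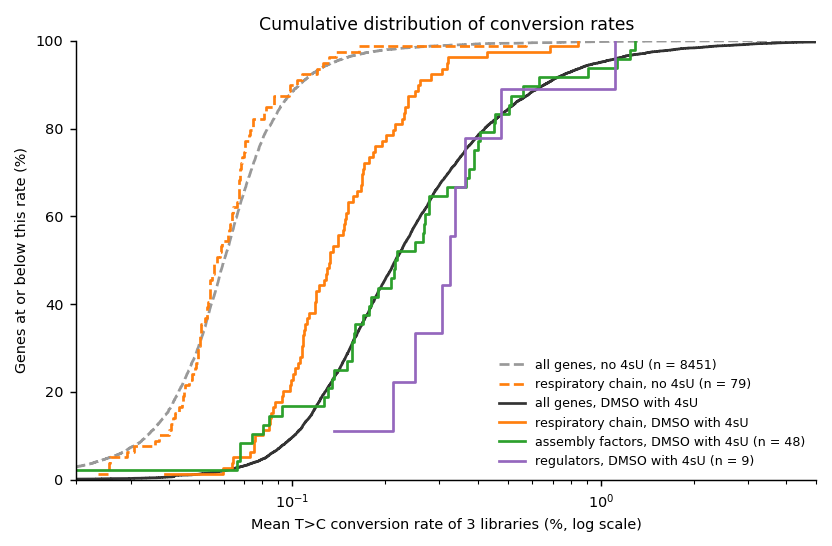
Cumulative share of genes (y axis, percent) at or below a mean T>C conversion rate (x axis, percent, log scale) in the 3 libraries without 4sU (dashed) and the 3 with DMSO and 4sU (solid). The 79 respiratory chain genes and all 8451 genes overlie each other without 4sU, and with 4sU the respiratory chain genes lie to the left of all genes, of the 48 assembly factors and of the 9 regulators.

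For part of the group the rate rose above background. The mean rate was higher with DMSO and 4sU than without 4sU in 78 of 80 genes, the exceptions being NDUFS8 and ATP5F1D. The rate rose past the threshold (limma, Benjamini-Hochberg adjusted p under 0.05 over all genes tested) in 27 of 79 genes, or 34.2%, whereas 58.1% of all genes tested rose. None of the 79 fell, beside 0.0118% of all genes, and at an unadjusted p under 0.05 the counts were 35 higher and 0 lower, beside 65.4% and 0.0947% of all genes. The median log2 change was 0.63 for respiratory chain genes and 1.18 for all genes. When the variance was modelled on abundance in place of the rate, 48 of 79 respiratory chain genes rose, beside 66.9% of all genes. Relative to the median gene of each library, 1 of 79 rose (ATP5MF-PTCD1) and 2 fell, beside 9.32% and 2.43% of all genes. On the log2 scale COX6C fell by 1.15 in this measure. Every DMSO library with 4sU lay above every library without 4sU in 55 of the 80 genes, beside 68.2% of genes tested.

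**Figure D2:**
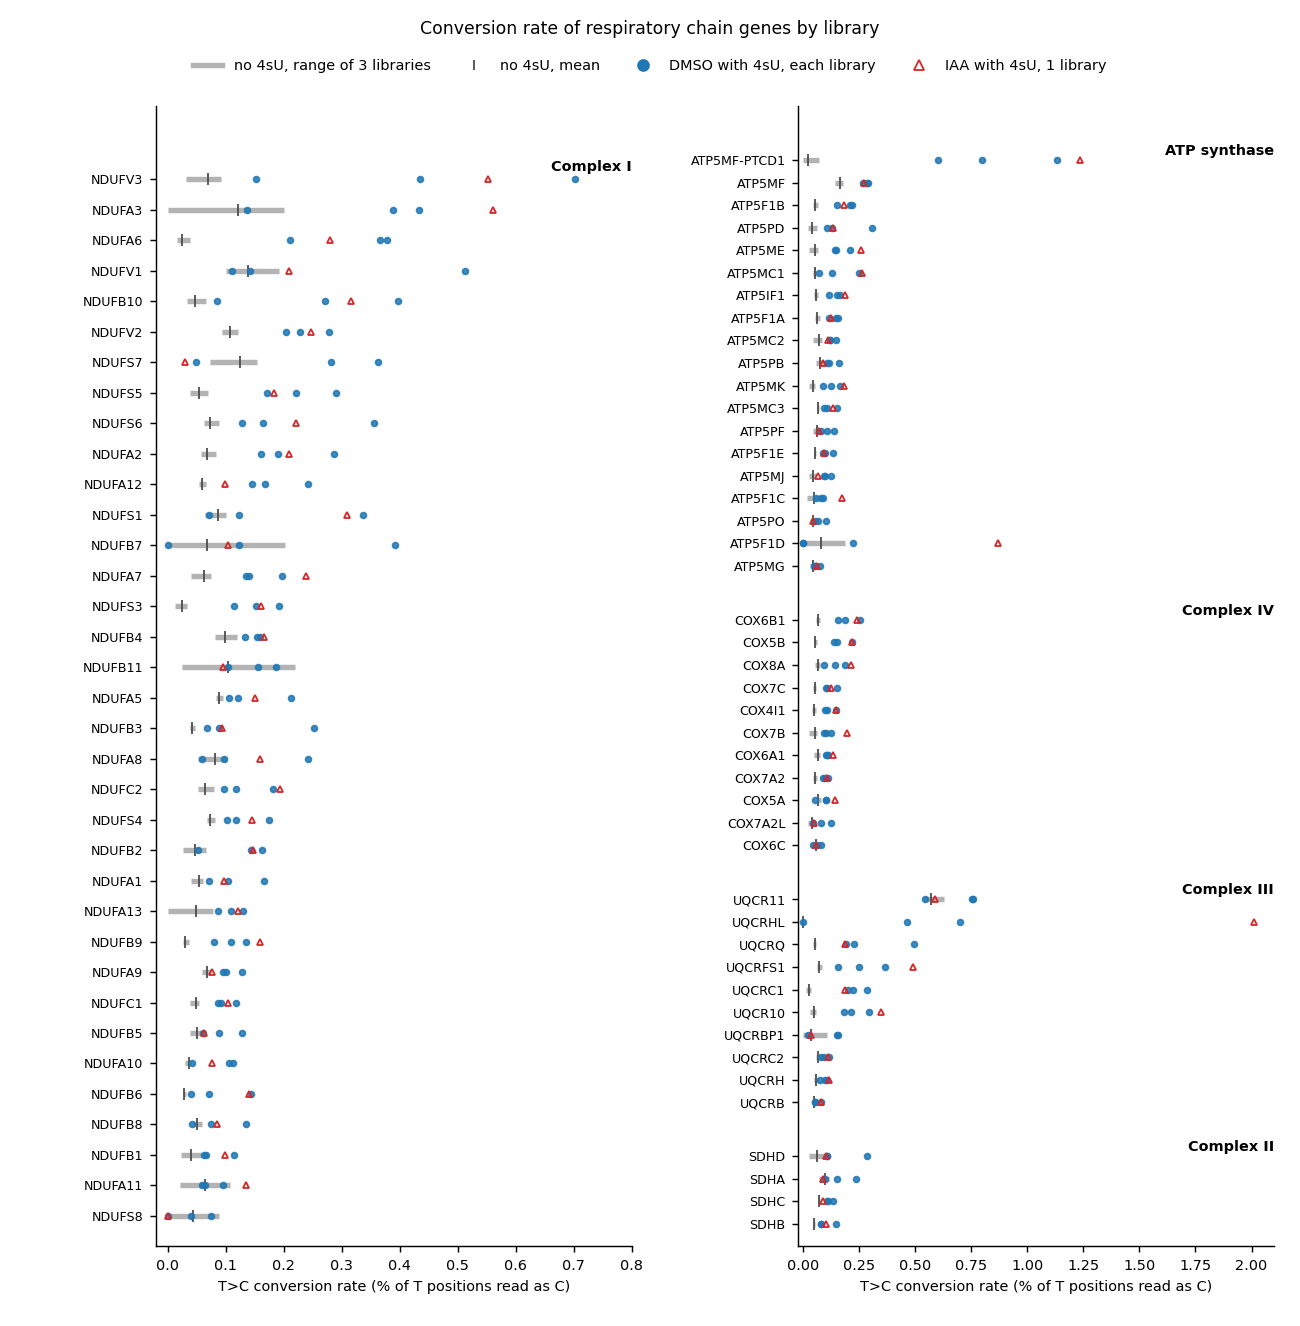
T>C conversion rate (x axis, percent of T positions) of 79 of the 80 genes (rows, sorted by mean rate within each complex), with the range and mean of 3 libraries without 4sU in grey, each of 3 DMSO libraries with 4sU as blue points and the IAA library as red triangles. Most labelled points lie between 0.05% and 0.3%, while ATP5MF-PTCD1, UQCR11 (already without 4sU) and the low-count UQCRHL stand far to the right. The left and right panels have different x axis ranges.

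In complex I, which receives electrons from NADH, the rate rose in 11 of 36 genes, beside 58.1% of all genes tested. NDUFV3, a small accessory subunit of the NADH-oxidising module, had the highest mean rate, with 0.435%, 0.153% and 0.701% with 4sU and 0.0312%, 0.0917% and 0.0871% without (log2 change 1.85 ± 0.52 SE, limma adjusted p = 0.021). Its groups did not overlap, although its labelled libraries were far apart. NDUFA6, an accessory subunit of the LYR-motif family, was named for the lowest adjusted p in the complex, after its values were seen. Its rate was 0.366%, 0.378% and 0.212% against 0.0380%, 0.0155% and 0.0229% (log2 change 2.26 ± 0.29, adjusted p = 0.0013). All 3 labelled libraries were far above the unlabelled ones.

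NDUFA3, the gene of complex I with the fewest reads, was second in mean rate, with 0.388%, 0.434% and 0.137% against 0.161%, 0.201% and 0, and its groups overlapped. At the other end, NDUFS8, an iron-sulfur core subunit, had 0.0409%, 0.0752% and 0 with 4sU and 0.0411%, 0.0880% and 0 without. NDUFA11, a membrane-arm subunit, had 0.0951%, 0.0591% and 0.0649% against 0.107%, 0.0639% and 0.0219%. Neither gene could be told from its own background. NDUFC1, the most abundant complex I gene at 188 ± 23.2 CPM without 4sU (SD, n = 3), had 0.0867%, 0.119% and 0.0914% against 0.0387%, 0.0531% and 0.0545%. Its groups did not overlap, but the change of 0.59 ± 0.24 missed the threshold (adjusted p = 0.069), and it passed with the variance modelled on abundance (adjusted p = 0.0030).

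In complex II, succinate dehydrogenase, 0 of 4 genes passed the threshold, with adjusted p between 0.092 and 0.205, beside 58.1% of all genes tested that rose. SDHA, the flavoprotein, had rates of 0.100%, 0.235% and 0.153% with 4sU and 0.119%, 0.0737% and 0.101% without. SDHB, the iron-sulfur subunit, had 0.147%, 0.0792% and 0.0798% against 0.0541%, 0.0438% and 0.0476%. The groups of SDHA overlapped and those of SDHB did not. The membrane anchors also differed in this way. SDHC had 0.113%, 0.109% and 0.134% against 0.0769%, 0.0710% and 0.0760%, without overlap, and SDHD had 0.288%, 0.107% and 0.110% against 0.114%, 0.0462% and 0.0287%, with overlap. SDHB and SDHC passed with the variance modelled on abundance (adjusted p = 0.016 and 0.0498).

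Complex III had the highest median rate of the complexes, 0.234% with DMSO and 4sU, beside 0.108% to 0.148% for the others. By DMSO library its median was 0.238%, 0.174% and 0.169%. These medians cover all 10 genes, among them the untested UQCRHL and UQCR11, whose rate was already high without 4sU. The rate rose in 4 of the 9 complex III genes tested, beside 58.1% of all genes tested. These were UQCRC1, a large core subunit, UQCRFS1, the Rieske iron-sulfur protein, and the small subunits UQCR10 and UQCRQ. UQCRC1 had 0.225%, 0.202% and 0.285% with 4sU against 0.0247%, 0.0157% and 0.0366% without (log2 change 1.92 ± 0.25, adjusted p = 0.0013). UQCRQ, the most abundant gene of the complex (232 ± 77.5 CPM without 4sU), had 0.498%, 0.193% and 0.228% against 0.0567%, 0.0468% and 0.0596% (log2 change 1.68 ± 0.36, adjusted p = 0.0080). The first DMSO library stood apart from the other labelled ones in UQCRQ, and all 3 exceeded its background.

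UQCRB and UQCRH, the ubiquinone-binding and hinge subunits, had the lowest rates of the complex. UQCRB had 0.0557%, 0.0527% and 0.0834% against 0.0497%, 0.0489% and 0.0502%, and UQCRH had 0.0981%, 0.0751% and 0.108% against 0.0494%, 0.0563% and 0.0706%. In both the groups were separate but by a small margin, and neither passed (adjusted p = 0.56 and 0.18). UQCRHL, a retro-copy near-identical to UQCRH, had 0.702%, 0 and 0.464% with 4sU and 0 in all 3 libraries without, from 45 to 112 reads in the DMSO libraries, and 2.01% in the IAA library from 72 reads. It was under the level needed for testing, and reads shared with UQCRH could be split between them, so its values are uncertain.

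UQCR11 had the highest rate in complex III, and most of it was present without the label. Its rate was 0.542%, 0.542% and 0.629% without 4sU, 0.546%, 0.752% and 0.759% with DMSO and 4sU, and 0.587% with IAA. The groups overlapped and the change of 0.23 ± 0.23 did not pass (adjusted p = 0.39). A second UQCR11 interval of 31 bases, at 26.5 CPM without 4sU, had 0.0354%, 0.0823% and 0 without 4sU. The high background thus belonged to the longer interval, of 1061 bases. In GRCh37 the gene lies on chr19:1597168-1605472 on the minus strand.

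In complex IV, cytochrome c oxidase, the rate rose in 4 of 11 genes, namely COX4I1, COX5B, COX6B1 and COX7C, beside 58.1% of all genes tested. COX6B1, which faces the intermembrane space, had 0.255%, 0.189% and 0.159% with 4sU against 0.0762%, 0.0691% and 0.0602% (log2 change 1.07 ± 0.26, adjusted p = 0.012). COX5B, a zinc-binding matrix subunit, had 0.137%, 0.218% and 0.153% against 0.0480%, 0.0502% and 0.0621% (log2 change 1.07 ± 0.25, adjusted p = 0.010). Both were separate from background in every library.

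COX6C was the most abundant gene of the complex (278 ± 26.2 CPM without 4sU) and the least labelled, with 0.0829%, 0.0454% and 0.0646% against 0.0774%, 0.0516% and 0.0421%. COX7A2L, which is related to COX7A2 and is found in supercomplexes of complexes III and IV, had 0.0807%, 0.0455% and 0.128% against 0.0227%, 0.0422% and 0.0582%. The groups of both genes overlapped. COX4I1, a large subunit bound to the catalytic core, and the small subunit COX7C had close values, with means of 0.119% ± 0.0279 and 0.122% ± 0.0252 (SD, n = 3), and rose by 0.74 ± 0.24 and 0.73 ± 0.23 (adjusted p = 0.034 and 0.031). COX6A1, COX7A2, COX7B and COX8A had means between 0.101% and 0.141%, and their groups did not overlap with background, but none of these 4 passed.

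In the ATP synthase, the rate rose in 8 of 19 genes, beside 58.1% of all genes tested. Among the catalytic head subunits, ATP5F1B (beta) had 0.221%, 0.153% and 0.211% with 4sU against 0.0527%, 0.0462% and 0.0689% (log2 change 1.20 ± 0.25, adjusted p = 0.0068). ATP5F1A (alpha) had 0.156%, 0.117% and 0.149% against 0.0525%, 0.0625% and 0.0769% (log2 change 0.74 ± 0.23, adjusted p = 0.029). Both head subunits rose without overlap. The inhibitor ATP5IF1 also rose, by 0.86 ± 0.23 (adjusted p = 0.018).

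ATP5MC1, ATP5MC2 and ATP5MC3 encode the same mature c subunit of the rotor ring with different import sequences. Their levels without 4sU were 47.3, 112 and 405 CPM. Their mean rates with 4sU were 0.152% ± 0.0907, 0.130% ± 0.0151 and 0.119% ± 0.0311 (SD, n = 3). The 3 genes differed several-fold in level, and their mean rates differed by less than the SD of ATP5MC1. The largest difference, between ATP5MC1 and ATP5MC3, exceeded the SDs of ATP5MC2 and ATP5MC3. None of the 3 genes passed the threshold (limma adjusted p = 0.070, 0.072 and 0.098), and all 3 passed with the variance modelled on abundance.

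ATP5MG, the membrane subunit g, was the most abundant respiratory chain mRNA by mean level and 1 of the least labelled. Its level without 4sU varied widely, with 314, 1023 and 715 CPM. In the first of these libraries ATP5MC3 (382 CPM) and COX7C (375 CPM) were higher. The rate of ATP5MG was 0.0757%, 0.0504% and 0.0539% with 4sU against 0.0598%, 0.0328% and 0.0391% without, from 16174 to 29512 reads per DMSO library. The groups overlapped, and the log2 change was 0.23 ± 0.29 (adjusted p = 0.50). ATP5F1D, the delta subunit of the central stalk, had 0.225%, 0 and 0 against 0.0527%, 0 and 0.190%, from 107 to 140 reads per DMSO library. A rate of 0 at this depth does not show that label was absent.

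The highest rate of all tested respiratory chain genes was that of ATP5MF-PTCD1, with 0.604%, 0.797% and 1.13% with 4sU against 0.0708%, 0 and 0 without (log2 change 3.69 ± 0.44, adjusted p = 0.0011). The interval is shared with PTCD1, a mitochondrial RNA-binding protein gene that lies within the readthrough gene (chr7:99017372-99063820, minus strand, GRCh37), so these reads cannot be assigned to an ATP synthase transcript. ATP5MF itself, a membrane subunit, had 0.285%, 0.292% and 0.267% against an elevated background of 0.178%, 0.143% and 0.172%. Its groups did not overlap and its labelled libraries were nearly equal, while the change of 0.63 ± 0.26 missed the threshold (adjusted p = 0.068).

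Between the respiratory chain genes, the log2 rates with 4sU had an SD of 0.57, beside a median SD of 0.30 between DMSO libraries for the same gene. Abundant genes tended to have lower rates. Across all 80 genes, UQCRHL included, Spearman's rho between rate with 4sU and level without 4sU was −0.35. Across all genes tested, which leave out UQCRHL, it was −0.21. These points share libraries, and low-count genes have noisier rates. Rate and interval length had a rho of −0.052 in the group and 0.17 in all genes, and the intervals were short, with a median of 185 bases beside 1250 bases for all genes tested. The part of interval length in the low rates was not tested. Genes with and without a promoter motif had close median rates: 0.148% (14 genes) and 0.131% (51 genes) for the NRF1 core, 0.141% and 0.132% for ETS, and 0.152% and 0.130% for YY1.

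**Figure D3:**
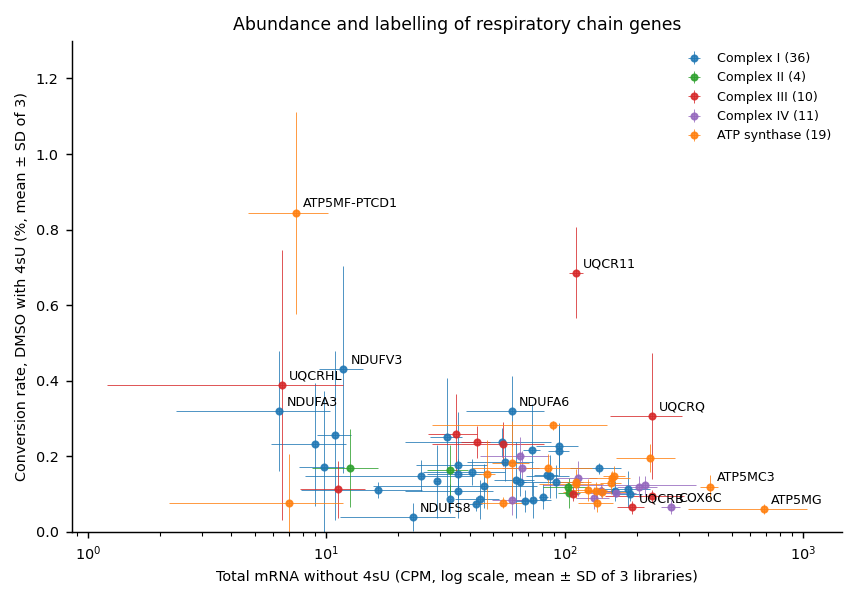
Conversion rate with DMSO and 4sU (y axis, percent) against total mRNA without 4sU (x axis, CPM, log scale) for the 80 genes, coloured by complex, as mean ± SD of 3 libraries on both axes. Genes above 200 CPM lie near or below 0.2% except UQCRQ, ATP5MG lies at the lower right, and genes under 15 CPM have the widest error bars.

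Other genes of the pathway were taken as lists. Of 3 electron transport genes that the symbol rule misses, the rate of CYCS, which encodes cytochrome c, rose from a mean of 0.0535% ± 0.0104 to 0.248% ± 0.0525 (log2 change 1.52, adjusted p = 0.0035). CYC1, cytochrome c1 of complex III, and NDUFAB1, the acyl carrier protein of complex I, had means of 0.124% and 0.0844% with 4sU and did not pass. Of 54 assembly factors, 48 were tested and 26 rose (54.2%, beside 58.1% of all genes tested), with a median mean rate of 0.218%. COX19, a copper-handling factor for complex IV, COA7 and PET117 had mean rates of 1.25%, 1.29% and 1.13%, whereas COX17, the copper chaperone, was at 0.0842% and did not pass.

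Of 12 regulators of mitochondrial genes, 9 were tested and 7 rose (77.8%, beside 58.1% of all genes tested), with a median mean rate of 0.325%. The PGC-1-related coactivator PPRC1 had 1.46%, 0.791% and 1.09% with 4sU against 0.0154%, 0.0480% and 0.153% without (log2 change 3.37, adjusted p = 0.0018). PPARGC1B, YY1, GABPB1, ESRRA, TFAM and TFB2M rose too, with TFAM, which packages and transcribes mitochondrial DNA, at 0.212% ± 0.0148 and TFB2M at 0.363% ± 0.0333. GABPA and TFB1M did not pass (adjusted p = 0.115 and 0.077). NRF1 and POLRMT were below the level tested, and PPARGC1A was listed at 0 in all libraries. For comparison, the rate rose in 37 of 68 cytosolic ribosomal protein genes (54.4%), with a median mean rate of 0.149%. It rose in 51 of 74 mitochondrial ribosomal protein genes (68.9%), with 0.199%, beside 58.1% of all genes tested. Respiratory chain subunits, with 0.132%, had the lowest of these medians apart from the 3 missed subunits (0.124%). The cytosolic ribosomal protein genes were close to them. In the DMSO libraries their medians were 0.171%, 0.144% and 0.129%, beside 0.150%, 0.117% and 0.118% for the respiratory chain. In the IAA library the order was reversed, with 0.139% beside 0.142%.

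Total mRNA of respiratory chain genes was compared between the same 6 libraries to see whether the pulse itself went with a change in level. No gene passed in this comparison, 0 of 79 by limma, edgeR and DESeq2, beside 1.28% of all genes lower and 0% higher by limma. The lowest adjusted p among the 79 was 0.40. Since the level without 4sU chose the genes, the values are a description. The log2 change was above 0 in 65 of 79 genes, beside 51.3% of all genes, with medians of 0.14 and 0.0069. It ran from −0.34 for ATP5MF-PTCD1 to 0.60 for COX6A1.

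At an unadjusted p under 0.05, 6 genes were higher by limma (1.45% of all genes were) and 0 lower (7.4% of all genes were). By edgeR 7 were higher and 0 lower, beside 1.69% and 7.51% of all genes, and by DESeq2 8 and 0, beside 2.71% and 7.18%. The number higher by limma was 14 with the replicate number as a block (3.35% of all genes higher, 9.37% lower). Without replicates 1, 2 and 3 it was 20, 4 and 0, beside 237, 274 and 37 of all 8499 genes. In these fits 0 respiratory chain genes were lower, beside 875, 348 and 258 of all genes. The 6 of limma without the block included NDUFA2, NDUFB10, NDUFS6, COX6A1 and ATP5PO. COX6A1 was at 152, 142 and 130 CPM without 4sU and at 346, 172 and 199 with, and NDUFA2 was at 88.6, 105 and 88.9 and then 161, 128 and 124 CPM. In both, the labelled libraries lay above the unlabelled ones. The CPM of the 80 genes summed to 8923, 7987 and 7009 without 4sU, to 9529, 9969 and 9166 with DMSO and 4sU, and to 10119 in the IAA library. This unscaled sum was higher with DMSO and 4sU than without 4sU in each of the 3 pairs of the same replicate number. No labelled library was below an unlabelled one. The CPM of all rows was also higher in the labelled libraries. It summed to 1073694, 1045054 and 995593 without 4sU, to 1164760, 1161605 and 1138469 with DMSO and 4sU, and to 1225981 with IAA. The sums of the 80 genes were not scaled to these totals. Without TMM scaling the median change of all genes was 0.094 and that of the respiratory chain genes 0.23.

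**Figure D4:**
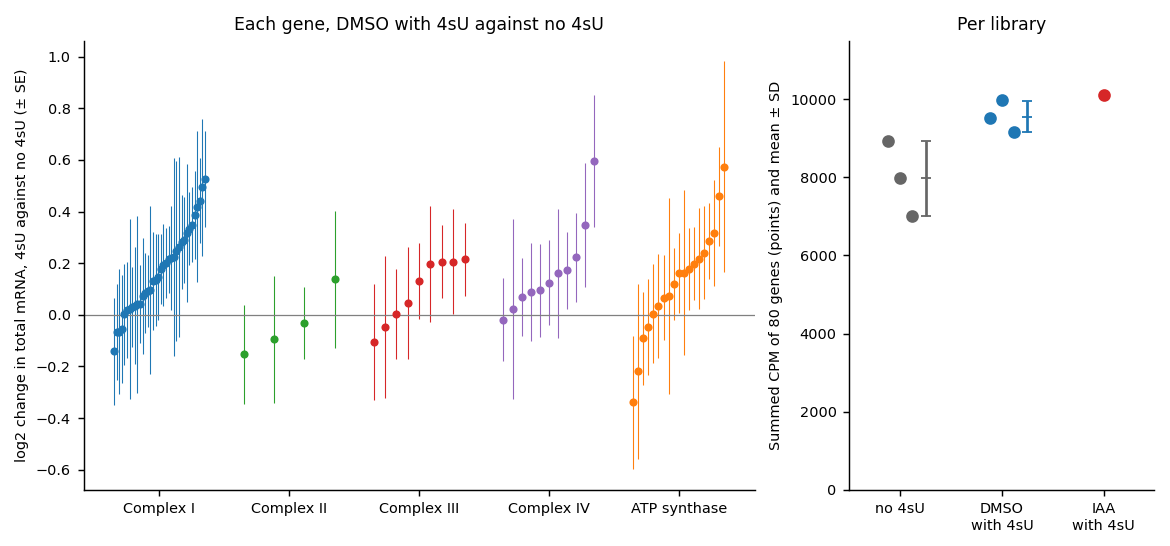
Left, log2 change in total mRNA ± SE (y axis) of each of 79 genes between DMSO with 4sU and no 4sU, grouped by complex. Right, summed CPM of the 80 genes (y axis) per library, with mean ± SD for the groups of 3, where the 3 DMSO libraries (9166 to 9969) lie above the 3 libraries without 4sU (7009 to 8923). These sums are not scaled, and the CPM of all rows was also higher in the DMSO libraries.

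IAA was compared with DMSO in labelled cells to ask whether respiratory chain genes responded to acute loss of JUN. With 1 IAA library the comparison has no test. For the medians, each DMSO library set against the other 2 gives the scale of library differences. After centring each library on its all-gene median, the median log2 difference in rate of the respiratory chain genes was −0.073 for IAA, beside −0.10, 0.047 and 0.033 for the 3 DMSO libraries. The IAA library thus lay within the range of the DMSO libraries. At 1 log2 unit or more from the DMSO mean and outside the DMSO range, 1 of 79 genes was higher and 1 lower, beside 6.57% and 6.7% of all genes. For such calls each DMSO library was set against all other labelled libraries, the IAA library included. The DMSO libraries 1, 2 and 3 then held 0, 3 and 4 higher (6.7%, 6.76% and 6.07% of all genes) and 1, 2 and 4 lower (7.39%, 8.61% and 5.99%).

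The gene called higher was ATP5F1D, with 0.869% in IAA against 0.225%, 0 and 0 in DMSO, from 133 reads. The gene called lower was NDUFS7, an iron-sulfur subunit of complex I, with 0.0301% against 0.282%, 0.0496% and 0.363%, from 309 reads. Both are among the genes with the fewest reads, and the DMSO libraries of each already spread widely. Of the abundant genes, ATP5MG had 0.0640% in IAA, COX6C 0.0608% and UQCRQ 0.188%, against DMSO ranges of 0.0504% to 0.0757%, 0.0454% to 0.0829% and 0.193% to 0.498%. The first 2 lay inside the DMSO range and UQCRQ slightly below it.

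In total mRNA the median difference between IAA and DMSO was 0.035, beside 0.073, 0.019 and −0.069 for the DMSO libraries. No respiratory chain gene was called, beside 0.118% of all genes higher and 0.0236% lower. The differences ran from −0.65 for the pseudogene UQCRBP1 to 0.58 for COX6A1, whose 359 CPM in IAA was close to the 346 CPM of the first DMSO library. The identical IAA columns carry no single replicate number. The pairing of total mRNA by replicate number, described below, was therefore not used here. Differences of single genes can hold differences between replicates.

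**Figure D5:**
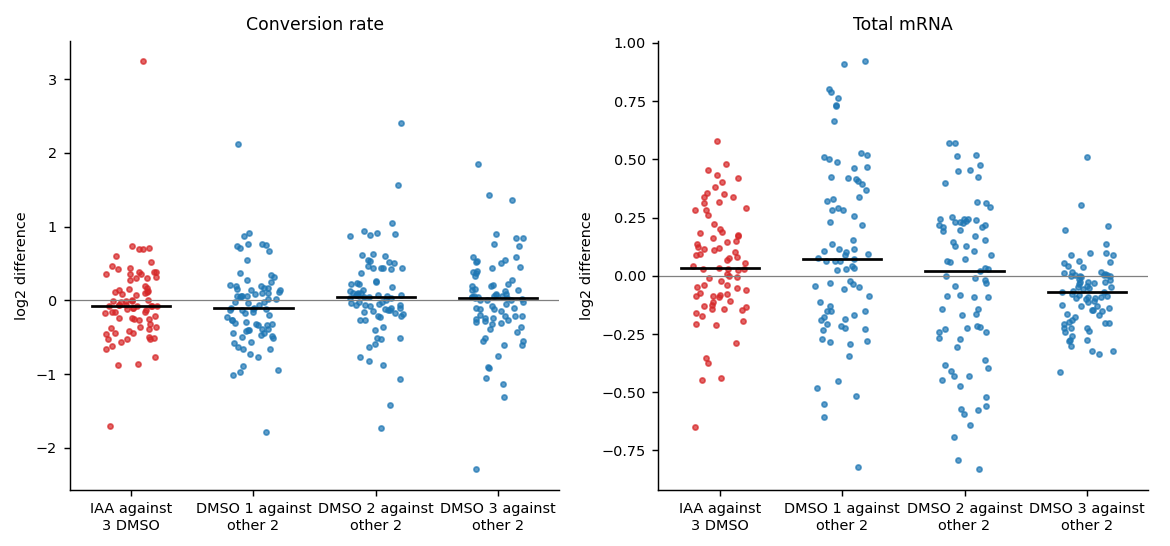
log2 difference (y axis) of each of 79 genes in conversion rate, centred on the all-gene median (left), and in total mRNA (right), for the IAA library against the mean of 3 DMSO libraries (red) and for each DMSO library against the other 2 (blue), with medians as black lines. The IAA medians, −0.073 and 0.035, lie within the range of the 3 DMSO medians in both panels.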

How the data were processed

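The authors analysed the SLAM-Seq libraries with the nf-core slamseq pipeline (hg19 in the submitters' processing notes, versions not given in the sources used here). Their deposited table gives, for each RefSeq 3′ interval, a T>C conversion rate as a fraction and CPM. The deposited CPM is used as a signal, because an interval that belongs to several transcripts is listed more than once. It was a whole multiple of 1 read (tolerance 0.01) in 100% of values above 0, which gave the reads and the library totals. T positions per interval are not used here, so rates carry no counting interval.

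Identifiers were matched to symbols through a RefSeq table of GRCh38.p14 (97.7% of rows). Per gene, the interval with most CPM without 4sU was used (28 of the 80 genes had several). The number of per-sample columns left out was 0.

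Rates were tested with limma 3.58.1 (R 4.3.3, trend and robust) on log2(rate + 0.0005), over genes with a mean of at least 5 CPM and, in 3 or more of the 6 libraries, a rate above 0. Total mRNA was tested with limma on log2(CPM + 1) with TMM sizes, and on recovered reads with edgeR 4.0.16 and DESeq2 1.42.0. Both scales understate changes of low values. For IAA the filter used the 4 labelled libraries, 2 of them with a rate above 0.

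On simulated data, limma on rates recovered 93.5% of 200 genes changed 9-fold (8162 tested), 0.51% of genes changed 3-fold where few genes changed (196 of 8166 tested) but 73.8% where many did (4204 of 8312), and 17.5% of genes changed 2-fold (4183 of 8273), so a labelled gene can miss the threshold. With the variance modelled on abundance, added after this was seen, the shares were 95%, 53.1%, 77.5% and 42.3%. The simulated rates held counting noise only, at a fixed number of T positions per read, without further spread between libraries. The real libraries do differ in overall rate, so these shares are not the recovery in the real data.

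Replicate numbers pair the libraries in total mRNA (deviations of same-numbered libraries with and without 4sU correlated at 0.40, 0.33 and 0.45), not in rates.

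Genes named with values were, per complex, the 2 highest and 2 lowest mean rates and the most abundant, set paralogues, and genes called in total mRNA or IAA. Others, such as NDUFA6, UQCRC1, ATP5F1A and ATP5F1B, and genes named from the other lists, were added after their values were seen. A further gene is counted but not reported here by name. The members and lists were chosen with earlier results of these data known. Calculations used Python 3.11.15 and pandas 2.3.3.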

Additional observations from a re-analysis of the deposited data

How the results depend on the processing

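The count of respiratory chain genes with a higher rate, 27, was 11 without replicate 1 or 2, 14 without replicate 3, 1 (and 2 lower) with rates centred on library medians, and 48 with the variance modelled on abundance. For all genes, 4912, it was 2857 to 3439 without 1 replicate and 788 with centring. Centring asks whether a gene rose more than the median gene, and it turned the log2 change negative in 65 of the 77 genes with a change above 0. Of the 27 called genes these were 16, namely ATP5F1A (−0.50), ATP5F1B (−0.036), ATP5IF1 (−0.38), ATP5ME (−0.15), ATP5MJ (−0.53), ATP5MK (−0.35), COX4I1 (−0.50), COX5B (−0.17), COX6B1 (−0.17), COX7C (−0.51), NDUFA12 (−0.16), NDUFA2 (−0.10), NDUFA7 (−0.35), NDUFB9 (−0.28), NDUFS6 (−0.22) and NDUFV2 (−0.38). All genes changed in total mRNA numbered 109, and 245 with DESeq2, 174 from 1 CPM, and 293, 18 and 19 without replicates 1, 2 and 3, with 0 respiratory chain genes in each.

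The median rate of respiratory chain genes, 0.128%, was 0.0636% after subtracting the rate without 4sU and 0.165% as a mean over genes. Its distance from all genes was −0.74 and −0.57. The IAA difference in rate was 0.059 without centring, and in total mRNA 0.10 without TMM. The cause was not tested. The median level, 72.2 CPM, was 85.7 for genes from 20 CPM and 94.3 with intervals summed.

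With the replicate block, 23 respiratory chain genes and 4496 of all genes had a higher rate, and in rates no library correlated best with its own number. In total mRNA, where numbers pair the libraries, 0 respiratory chain genes passed an adjusted p of 0.05 with the block, as without it. Of all genes, 133 passed with the block and 109 without (131 and 112 with edgeR). At an unadjusted p under 0.05 the block raised the respiratory chain genes higher in total mRNA from 6 to 14 (from 7 to 14 with edgeR). Low reads limit the genes near 5 CPM, whose rates include 0.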
